A study of Mus musculus with 6 samples.

Results

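Paneth cells sit at the base of small intestinal crypts and secrete antimicrobial proteins. The set described here holds 9 genes named as Paneth cell products other than defensins, namely Lyz1, Mmp7, Ang4, Itln1, Pla2g2a, Pnliprp2, Clps, Habp2 and Nupr1. Members were found by matching the accession printed for each array feature to these symbols, and 7 of the 9 genes had a probe, with 9 probes in all among the 41006 probes of the array. Lyz1 and Pla2g2a had no matched probe and were not analysed here. The tissue was small intestinal crypts, taken by laser microdissection at mid length of the gut in C57BL/6 mice, all 120 days old. In the LOI(+) group, 3 mice carried a deletion of the H19 gene and of upstream sequence that includes its differentially methylated region. They inherited it from H19+/- mothers, and the maternal copy of Igf2, silent in wild type, is active in such mice. The LOI(-) group was 3 wild-type mice of the same cross, with wild-type C57BL/6J fathers. The labels call 4 mice male and give no sex for LOI(+) 2 and LOI(-) 3. RNA was linearly amplified on labelling, and each animal was hybridised once, its crypt RNA in Cy3 beside Universal Mouse Reference RNA in Cy5, which combines RNA of cultured mouse cell lines and was common to the 6 arrays.

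Paneth cells mature under Wnt signalling, store their products in large granules and release them into the crypt lumen, where they act on bacteria and help set the surroundings of the neighbouring stem cells. Lysozyme (Lyz1) cuts bacterial cell walls, Ang4 is a ribonuclease of the angiogenin family with microbicidal activity, Itln1 is a lectin that binds microbial sugars, and the secreted phospholipase Pla2g2a attacks bacterial membranes. C57BL/6 mice are known to carry an inactivating mutation of Pla2g2a. Mmp7, or matrilysin, is the protease that activates defensin precursors in mouse Paneth cells. Pnliprp2 is a lipase of the pancreatic lipase family and Clps is colipase, the cofactor of pancreatic lipase. Both are also products of pancreatic acinar cells. Habp2 is a plasma serine protease made mainly by liver. Nupr1 is a small nuclear protein induced by stress and is not known as a secreted product, so it goes against the name of the set.

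The probes are single strands of 60 bases, and the values below are the signals on these sequences. They are shown because Mmp7 and Pnliprp2 each had a pair of probes that gave different values, and because the Itln1 spot was saturated. No other probe on the array shared a run of 18 bases with any of the 9 member probes on either strand. The sequences are those in the array files, in lower case.
Mmp7, brighter probe: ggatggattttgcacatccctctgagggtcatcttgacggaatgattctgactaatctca
Mmp7, dimmer probe: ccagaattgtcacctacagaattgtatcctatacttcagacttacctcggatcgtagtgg
Ang4: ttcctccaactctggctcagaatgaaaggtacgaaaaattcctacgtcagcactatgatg
Itln1: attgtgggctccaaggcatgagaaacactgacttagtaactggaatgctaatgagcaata
Pnliprp2, brighter probe: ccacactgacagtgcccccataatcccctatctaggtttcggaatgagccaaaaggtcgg
Pnliprp2, dimmer probe: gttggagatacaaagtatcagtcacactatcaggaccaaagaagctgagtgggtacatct
Clps: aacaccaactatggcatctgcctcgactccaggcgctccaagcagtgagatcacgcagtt
Nupr1: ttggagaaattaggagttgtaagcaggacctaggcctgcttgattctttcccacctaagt

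Median Cy3 signals per array ranged from 552 to 603, and for the 314 negative controls the percentile 95 ranged from 439 to 449. Array pairs correlated across genes with r of 0.932 or more. The array of LOI(+) 2 stood furthest from the rest, with a mean r of 0.948 and 146 outlier features, the highest number. The deleted gene H19 had no matched probe, so it did not check the group labels, and Igf2 differed by -0.0024 ± 0.057 (SE, n = 3 mice per group). In limma, 0 of 37948 genes and unnamed probes passed an adjusted p of 0.05 (Benjamini-Hochberg, two-sided), which is 0%. At an unadjusted p under 0.05 there were 2335 (6.15%), with 1491 (3.93%) on the higher side and 844 (2.22%) on the lower side in LOI(+) crypts. An unmoderated model per gene gave 0 after adjustment and 2117 at that unadjusted level.

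All 7 measured members had Cy3 signals above percentile 95 of the negative controls on all 6 arrays. Relative to the pooled RNA of cultured cells, 3 of them were far higher in crypts. The mean log2 ratio of Cy3 over Cy5 was 5.26 ± 0.14 for the brighter Mmp7 probe (SD, n = 6), 4.04 ± 0.58 for Ang4 and 3.37 ± 0.25 for Clps. Each of these lay at or above percentile 99.5 of all probes. Itln1 was saturated in Cy3 on all 6 arrays, so its ratio is not read as a level. Habp2 at 0.51 ± 0.19 and the brighter Pnliprp2 probe at 0.43 ± 0.19 had ratios nearer to those of the pooled RNA. The ratio of Habp2 is limited by its low signal. The dimmer probes differed from the brighter ones, at 2.11 ± 0.81 for Pnliprp2 and 1.895 ± 0.66 for Mmp7, so the level of these genes depends on the probe. Nupr1 was below the pooled RNA, at -0.45 ± 0.39, which is percentile 13.3. There was no dye swap. A dye effect of a probe is therefore within its ratio. It is common to both groups only if it is the same on every array, which was not tested.

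Between the groups, the mean of each of the 6 members not saturated in Cy3 was lower in LOI(+) than in LOI(-) crypts, and no member passed the test. Of these 6, 0 were higher and 6 lower, with a median log2 difference of -0.12, against 48.7% lower and a median of 0.0029 over all genes tested. The number lower was 3 of 6 on the 4 arrays labelled male, and 4 of 6 without LOI(+) 1, without LOI(+) 2, without LOI(-) 3 or with scale normalization between arrays. The median without each mouse in turn ran from -0.23 to -0.061, nearest to 0 without LOI(+) 1 or LOI(+) 2. The members shared their mouse-to-mouse variation, so they are not 6 separate observations. Their groups overlapped for all 9 probes, where 11.3% of all genes had no overlap, 6.37% higher and 4.94% lower in LOI(+). One of the 7 members, Nupr1, had an unadjusted p under 0.05, on the lower side, against 2.22% of all genes. In bulk crypt RNA, fewer Paneth cells and less of a product per cell cannot be told apart.

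**Figure D1:**
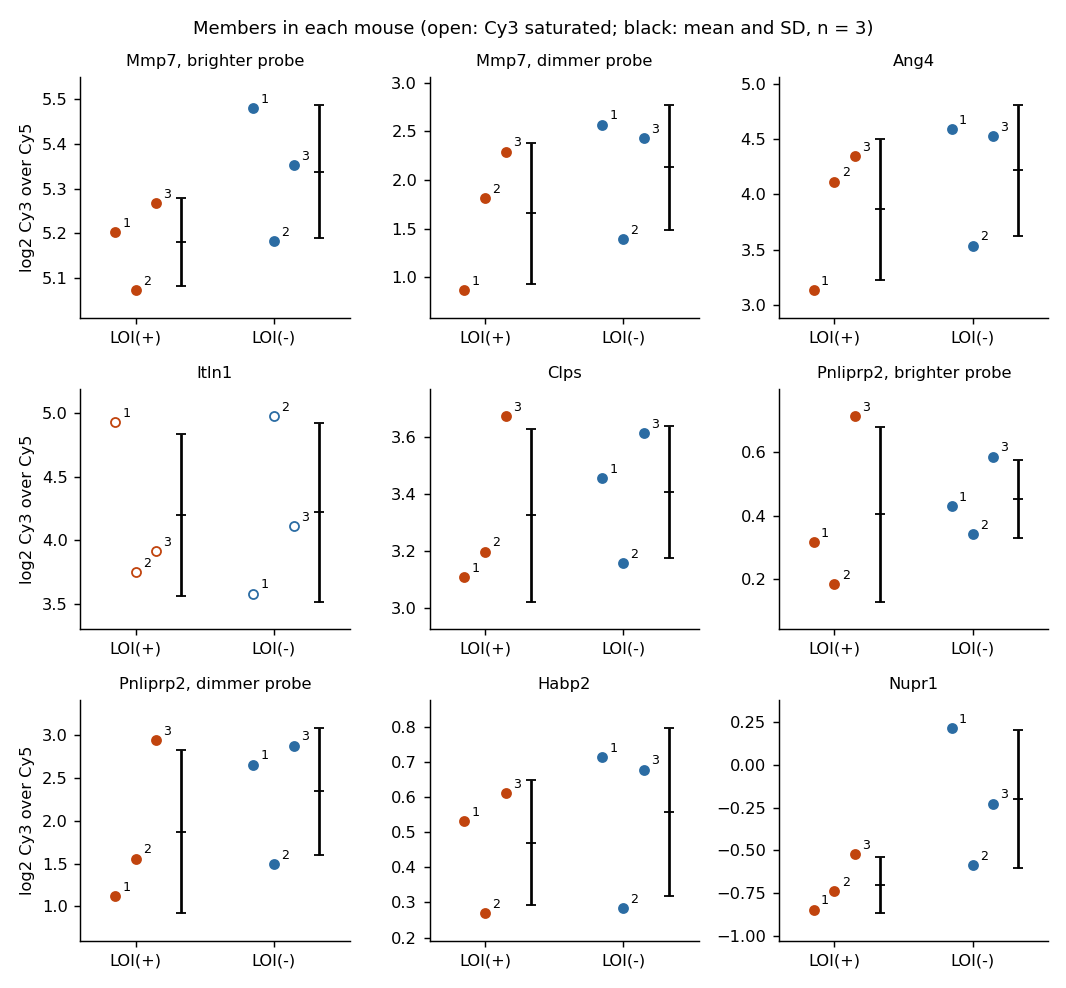
Log2 ratio of Cy3 over Cy5 for each of the 9 member probes, with a point per mouse labelled by its replicate number, LOI(+) on the left and LOI(-) on the right of each panel, open points where the Cy3 spot was saturated, and the mean and SD (n = 3) in black. The groups overlap in every panel, and among the LOI(-) mice number 2 is lowest in every panel but that of Itln1.

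Mmp7, the protease of defensin activation, gave log2 ratios on its brighter probe of 5.20, 5.07 and 5.27 in LOI(+) crypts, against 5.48, 5.18 and 5.35 in LOI(-) crypts. The highest mouse was LOI(-) 1 and the lowest LOI(+) 2, and LOI(-) 2 lay inside the range of the LOI(+) mice. The difference was -0.16 ± 0.092 (SE), with a 95% interval from -0.38 to 0.061 and an adjusted p of 0.827 in limma, but it stood at 0.18 with scale normalization between arrays. It was -0.086 without LOI(-) 1 and -0.24 without LOI(-) 2. In an exact permutation test of the 3 against 3 arrays, two-sided, this probe gave p = 0.3, where 0.1 is the smallest that the design allows. The dimmer Mmp7 probe gave 0.87, 1.81 and 2.29 in LOI(+) crypts, against 2.57, 1.39 and 2.43 in LOI(-) crypts. Both probes were highest in LOI(-) 1, while the lowest mouse was LOI(+) 1 on the dimmer and LOI(+) 2 on the brighter probe. On the dimmer probe the difference was -0.47 ± 0.43, with an interval from -1.48 to 0.53.

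Ang4, the angiogenin-family ribonuclease, had the widest spread among the unsaturated members on the brighter probe of each gene. Its log2 ratios were 3.14, 4.11 and 4.34 in LOI(+) crypts, against 4.59, 3.54 and 4.53 in LOI(-) crypts. LOI(+) 1 and LOI(-) 2 were low and the other 4 mice lay close together. The difference was -0.35 ± 0.38 with an interval from -1.26 to 0.55 and an adjusted p of 0.890 in limma. Without LOI(+) 1 it was 0.010, and without LOI(-) 2 it was -0.69. The pooled within-group SD of 0.62 was at percentile 99.7 of all genes, against a median of 0.096.

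The other angiogenins moved with Ang4 from mouse to mouse. Ang, the classical angiogenin, had log2 ratios of 3.46, 4.74 and 5.08 in LOI(+) crypts, against 5.37, 4.27 and 5.17 in LOI(-) crypts. Ang5 gave 2.45, 3.37 and 3.97 in LOI(+) crypts, against 4.13, 3.01 and 4.16 in LOI(-) crypts. In both genes LOI(+) 1 was lowest and LOI(-) 2 next lowest, as in Ang4. Over the 6 arrays the Pearson r with Ang4 was 0.986 for Ang, 0.987 for Ang2 and 0.983 for Ang5, given as a description. These genes are close copies of each other, and the probes may bind more than 1 of their transcripts, so their values are not separate measurements with certainty. The differences were -0.51 ± 0.46 for Ang, -0.38 ± 0.37 for Ang2 and -0.50 ± 0.44 for Ang5, none past the test.

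Lysozyme could be read only through Lyz2, the myeloid lysozyme gene, which is a close copy of Lyz1. Whether the Lyz2 probes also bind Lyz1 transcripts was not tested. Its probe with the highest Cy3 signal gave log2 ratios of 3.53, 3.80 and 4.11 in LOI(+) crypts, against 4.46, 3.86 and 4.31 in LOI(-) crypts. Only LOI(+) 3 reached into the range of the LOI(-) mice. The difference was -0.40 ± 0.19 with an interval from -0.85 to 0.056 and an adjusted p of 0.819 in limma. In LOI(-) 1 this probe had 9 of 32 pixels saturated. The other Lyz2 probes stood at -0.30 ± 0.16 and -0.52 ± 0.20. The last of these, the dimmest, had an unadjusted p of 0.0326 and an adjusted p of 0.808 in limma. The families of lysozyme and ribonuclease A had 10 measured genes, each read on its brightest probe. Of these, 4 were higher and 6 lower with a median of -0.076, and 0 passed over all genes tested or at an unadjusted p under 0.05.

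Itln1, the lectin, had no measurable difference between the groups because its spot was at the ceiling of the scanner. Its Cy3 signal was between 65517.2 and 65517.5 on all 6 arrays, with 29 to 32 saturated pixels in the spot. With Cy3 at its ceiling the log2 ratio carries no crypt signal between arrays, and it was 4.93, 3.75 and 3.92 in LOI(+) crypts, against 3.58, 4.97 and 4.11 in LOI(-) crypts. The Cy5 signal of Itln1 was 5516, 9434 and 10849 in LOI(+) mice, against 12707, 6245 and 10198 in LOI(-) mice. It was lowest in LOI(+) 1 and LOI(-) 2 and highest in LOI(-) 1, which is the order of the Cy3 signal of Ang4 at both ends. No difference between the groups is read for this gene.

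The brighter Mmp7 probe, Ang4 and Clps had a Cy5 signal that moved with Cy3, although the same pooled RNA was on every array. For the brighter Mmp7 probe the Cy3 signal was 5396, 8245 and 10915 in LOI(+) mice, against 17475, 5339 and 9188 in LOI(-) mice. The Cy5 signal of the same spot was 598, 787 and 968.5 in LOI(+) mice, against 1112, 673 and 838 in LOI(-) mice. From the lowest to the highest array this is a fold of 3.27 in Cy3 and of 1.86 in Cy5. The corresponding folds were 4.89 and 1.62 for Ang4 and 2.44 and 1.53 for Clps, while the median fold in Cy5 over all probes was 1.14. The Pearson r of Cy5 with Cy3 over the 6 arrays was 0.963 for this Mmp7 probe, 0.971 for Ang4 and 0.970 for Clps. Over all probes, whose channels also share the background of the spot, the median r was 0.732. Among 82 unsaturated probes with Cy3 over 5000 and over 5 times Cy5, limits chosen after seeing the data, the median r was 0.884 and the median Cy5 fold 1.32. The other probes had lower r, at 0.688 for the brighter Pnliprp2 probe, 0.561 for the dimmer Mmp7 probe, 0.217 for Nupr1, -0.127 for the dimmer Pnliprp2 probe and -0.395 for Habp2.

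**Figure D2:**
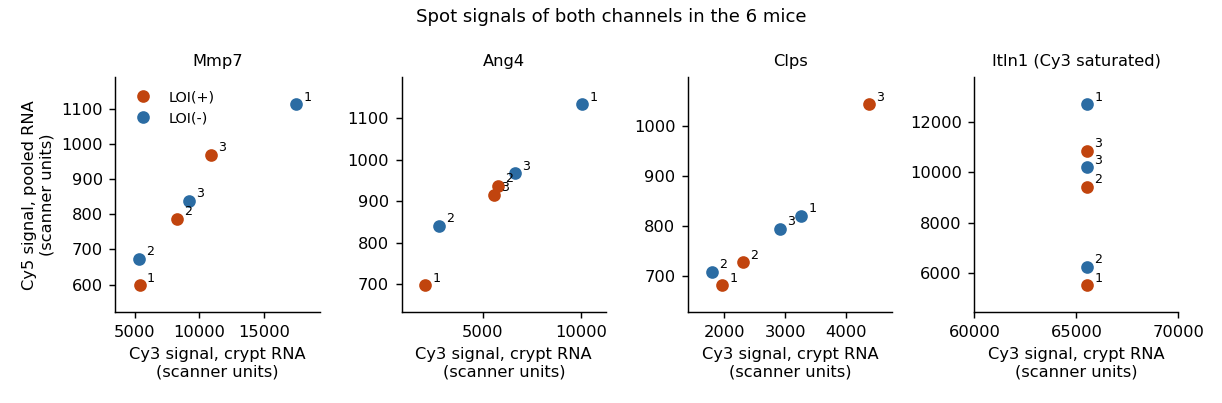
Spot signal of Cy5 (pooled RNA, vertical axis, scanner units) against Cy3 (crypt RNA, horizontal axis, scanner units) for Mmp7 (brighter probe), Ang4, Clps and Itln1, with a point per mouse labelled by its replicate number and LOI(+) listed above LOI(-). Cy5 rises with Cy3 in the first 3 panels, and for Itln1 the Cy3 signal stands at 65517 in all mice while Cy5 runs between 5516 and 12707.

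The size of the difference for Mmp7 and Ang4 depended on whether the ratio or Cy3 alone was used. With Cy3 alone after quantile normalization, the brighter Mmp7 probe averaged 12.75 ± 0.47 in LOI(+) and 13.23 ± 0.63 in LOI(-) crypts (SD, n = 3 each, log2 signal), a difference of -0.48 ± 0.32 (SE) in place of -0.16. Ang4 averaged 11.70 ± 0.81 in LOI(+) and 12.46 ± 0.82 in LOI(-) crypts, a difference of -0.76 ± 0.46 in place of -0.35. On this scale the dimmer Mmp7 probe stood at -0.51 ± 0.34, close to the brighter one. The adjusted p of these 3 probes in limma lay between 0.897 and 0.905, so none was called on either scale.

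**Figure D3:**
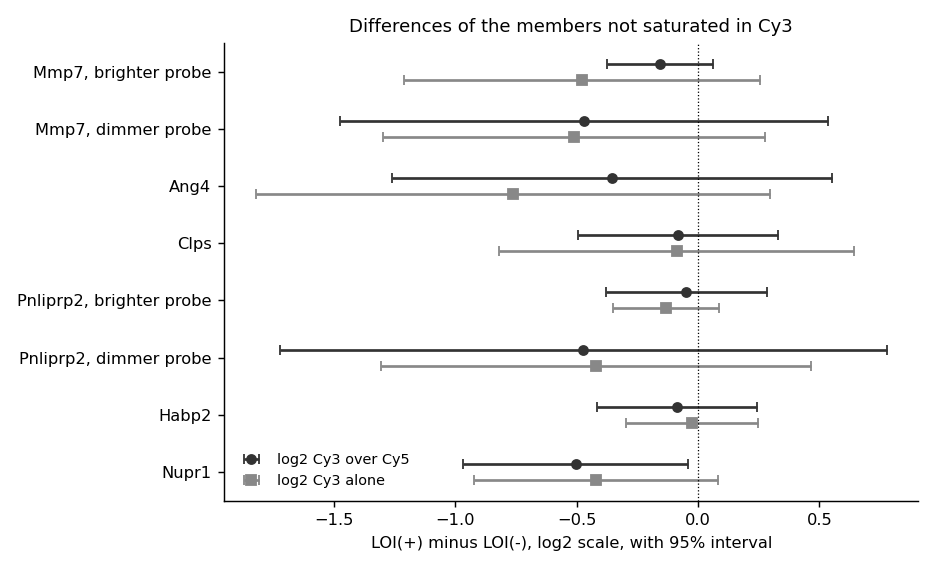
Difference of LOI(+) minus LOI(-) on the log2 scale (horizontal axis) for the 8 probes of members not saturated in Cy3, with 95% intervals, from the ratio of Cy3 over Cy5 (dark circles) and from Cy3 alone (grey squares). All points lie below 0, and only the ratio of Nupr1 has an interval that leaves out 0, from -0.97 to -0.041.

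The lipase Pnliprp2 and its family's cofactor colipase were read on 3 probes. Clps gave log2 ratios of 3.11, 3.20 and 3.67 in LOI(+) crypts, against 3.46, 3.16 and 3.61 in LOI(-) crypts, with LOI(+) 3 the highest of all mice. The difference was -0.083 ± 0.17 with an interval from -0.49 to 0.33, and it turned to 0.14 with scale normalization between arrays. The brighter Pnliprp2 probe gave 0.32, 0.18 and 0.71 in LOI(+) crypts, against 0.43, 0.34 and 0.59 in LOI(-) crypts, a difference of -0.048 ± 0.14. LOI(+) 3 was again the highest. Clps and this probe moved together over the 6 arrays, with a Pearson r of 0.905. The dimmer Pnliprp2 probe varied far more, at 1.12, 1.56 and 2.94 in LOI(+) crypts, against 2.65, 1.496 and 2.88 in LOI(-) crypts, and its difference was -0.47 ± 0.53. Its Cy5 signal was between 431 and 465, against 780 to 1068 on the brighter probe.

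Pancreatic genes were checked because Clps and Pnliprp2 are also made by pancreatic acinar cells. Of 25 acinar markers, 15 were measured, and 6 had a higher and 9 a lower mean in LOI(+), with a median of -0.018 and 0 past the test. Pnlip, pancreatic lipase itself, had a mean Cy3 signal of 496 in LOI(+) and 500 in LOI(-) mice, just above the negative controls. Prss2, a trypsinogen, was below the negative controls on all 6 arrays. The 4 brightest were Zg16, which goblet cells also make, at -0.020 ± 0.082, Rnase1 at 0.062 ± 0.071, Cel, the bile salt lipase, at -0.069 ± 0.050 and Ctrb1, chymotrypsinogen, at 0.053 ± 0.062. The largest difference in the list was that of Reg1, a secreted lectin, at 0.83 ± 0.28 with an unadjusted p of 0.0213 and an adjusted p of 0.801 in limma. The mean centred log2 ratio of the 15 markers ran from -0.026 to 0.044 in LOI(+) and from -0.059 to 0.011 in LOI(-) mice. Of 8 other measured lipase genes, not all of the pancreatic lipase family and with Cel again among them, 1 was higher and 7 lower. Pnliprp1 was at -0.18 ± 0.053 with an unadjusted p of 0.0101 and an adjusted p of 0.801 in limma. The mean Cy3 signal of Pnliprp1 was 478 in LOI(+) and 486 in LOI(-) mice, also just above the negative controls. Hepatic lipase, Lipc, was at -0.10 ± 0.059 and Liph at -0.12 ± 0.082.

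Habp2, the plasma protease, was the dimmest member. Its Cy3 signal was 517, 513 and 514 in LOI(+) mice, against 539, 496 and 520 in LOI(-) mice, between 1.09-fold extremes. Its log2 ratios were 0.53, 0.27 and 0.61 in LOI(+) crypts, against 0.71, 0.28 and 0.68 in LOI(-) crypts, with the mice of replicate number 2 lowest in both groups. The difference was -0.087 ± 0.14 with an interval from -0.42 to 0.24. Among 12 other plasma serine proteases and their inhibitors, 6 were higher and 6 lower. Plasma kallikrein, Klkb1, was at 0.16 ± 0.070, Serpinf2, the plasmin inhibitor, at -0.12 ± 0.074, and Plat, tissue plasminogen activator, at -0.17 ± 0.092 with a signal above the negative controls on 1 array. Klkb1 was also close to the negative controls, with a mean Cy3 signal of 452 in LOI(+) and 451 in LOI(-) mice. Of 10 liver markers, 7 were measured and their median was 0.027.

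Nupr1, the stress-induced nuclear protein, had the smallest p of the members. Its log2 ratios were -0.85, -0.74 and -0.52 in LOI(+) crypts, against 0.22, -0.59 and -0.23 in LOI(-) crypts. LOI(-) 2 lay within the LOI(+) range and LOI(-) 1 stood highest. The difference was -0.50 ± 0.20 (SE), a fold of 0.705, with an interval from -0.97 to -0.041 and an unadjusted p of 0.0369. Adjusted over all genes tested the p was 0.803 in limma. Over the alternatives the smallest adjusted p of any member lay between 0.628 and 1.00. In the exact permutation test, two-sided, p was 0.2. Without LOI(-) 1 the difference was -0.30 and without LOI(-) 2 it was -0.70. Nupr1 is a target of the integrated stress response, and of 11 measured genes of that response 4 were higher and 7 lower, with a median of -0.077 and 0 at an unadjusted p under 0.05. Among them Cebpb stood at -0.34 ± 0.15, Atf3 at -0.14 ± 0.074 and Ddit3 at -0.30 ± 0.22.

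The members varied together across mice. Among the 6 unsaturated members, all 15 pairs had a Pearson r above 0 over the 6 arrays, from 0.378 to 0.918 with a median of 0.680. The pairs share arrays and normalization, so these values are a description. Mmp7 and Nupr1 had the highest r, and Pnliprp2 and Nupr1 the lowest. The mean centred log2 ratio of these 6 members was -0.29, -0.18 and 0.15 in LOI(+) mice, against 0.29, -0.21 and 0.23 in LOI(-) mice. LOI(+) 3 thus stood with LOI(-) 1 and LOI(-) 3, and LOI(-) 2 with LOI(+) 1 and LOI(+) 2, and the groups overlapped. This pattern was not particular to the members. Goblet cell markers stood at -0.088, -0.11 and 0.093 in LOI(+) mice, against 0.14, -0.13 and 0.092 in LOI(-) mice. Myeloid and mast cell markers had the same signs, while tuft cell markers did not. Over all genes, the deviations of LOI(+) 1 and LOI(-) 2 from their group means correlated at 0.453. The share of pairs above 0 over all genes was not computed. The within-group SD of 5 of the 6 was at percentile 89.2 or above of all genes, and Mmp7 was at percentile 67.7.

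**Figure D4:**
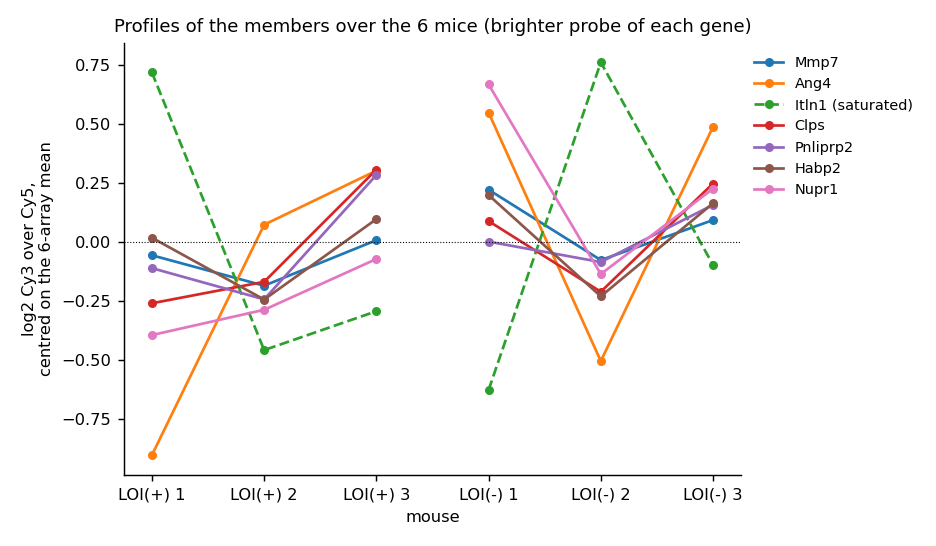
Log2 ratio of Cy3 over Cy5 of each member, brighter probe, centred on its mean over the 6 arrays (vertical axis), in the 3 LOI(+) mice on the left and the 3 LOI(-) mice on the right; lines join the values of a gene and the dashed line is the saturated Itln1. The unsaturated members are mostly above 0 in LOI(+) 3, LOI(-) 1 and LOI(-) 3 and mostly below it in LOI(+) 1, LOI(+) 2 and LOI(-) 2, and Itln1 is high in LOI(+) 1 and LOI(-) 2.

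The genes nearest in profile depended on the saturated Itln1 probe. Among 11606 other named genes above the negative controls and unsaturated on all arrays, those closest to the mean profile of the 6 unsaturated members were Cklf, Cacnb4, Olfr551, Ramp1 and Acbd4, with a Pearson r of 0.997, 0.996, 0.991, 0.990 and 0.988 over 6 arrays. With Itln1 in the profile the 5 closest were Plvap, Tgm6, Minar2, Tmsb4x and Sh3bgrl2, with r from 0.982 to 0.993. None of these 5 was among the 5 closest to the unsaturated profile, with which they had r from 0.879 to 0.933. Both lists hold the highest r among 11606 genes over only 6 arrays, so these values are a description and no test.

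Shown are the promoters of Mmp7 and Ang4, the 2 members with a match of the AP-1 motif. Their Pearson r with each other was 0.59, below the median of 0.680 of the unsaturated pairs. Nupr1 and Habp2, with r of 0.918 and 0.882 with Mmp7, had a match of neither motif. These r values are a description, and a link between motif and profile was not tested. Sequences are from RefSeq on GRCm38.p6 and run from 250 bases before to 50 bases after the start. Capitals mark 2 motifs searched on both strands. One is CTTTGA, the core bound by TCF factors of Wnt signalling, and the other TGANTCA, the AP-1 site. Of the members, 7 had a promoter in the table (Clps and Pla2g2a had none), and for Mmp7 the upstream of its starts is shown.
Mmp7, chr9:7691840-7692139, plus strand: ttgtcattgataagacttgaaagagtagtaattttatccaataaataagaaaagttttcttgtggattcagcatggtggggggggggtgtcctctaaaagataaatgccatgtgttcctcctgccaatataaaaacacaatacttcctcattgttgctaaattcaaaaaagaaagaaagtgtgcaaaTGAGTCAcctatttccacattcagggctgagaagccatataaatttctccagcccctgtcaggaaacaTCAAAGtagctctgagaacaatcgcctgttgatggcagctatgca
Ang4, chr14:51773541-51773840, minus strand: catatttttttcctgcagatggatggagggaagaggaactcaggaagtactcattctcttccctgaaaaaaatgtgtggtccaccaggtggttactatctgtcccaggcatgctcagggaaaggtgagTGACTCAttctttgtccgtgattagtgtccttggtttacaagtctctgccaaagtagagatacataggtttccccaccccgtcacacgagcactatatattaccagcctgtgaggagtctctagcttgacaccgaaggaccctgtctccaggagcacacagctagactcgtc
The AP-1 motif was in the promoters of Mmp7 and Ang4 among the 7, and in 7.81% of all 32851 promoters in the table. CTTTGA was in those of Mmp7 and Pnliprp2, and in 16% of all. The 2 motifs did not overlap in the Mmp7 promoter. A match is only these letters, and no binding was measured.

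Of 29 further Paneth cell genes, 13 were measured, 7 higher and 6 lower in LOI(+). Their median was 0.010, and 0 had an unadjusted p under 0.05 in limma. Of the 13, 5 were saturated in Cy3, namely Defa3, Defa5 and Defa29 on all 6 arrays and Reg3b and Reg3g on 1 each. The count and median include these genes, and no difference is read for those saturated on all 6 arrays. Unsaturated ones included Reg3a, an antimicrobial lectin, at -0.29 ± 0.22, the Notch ligand Dll4 at 0.14 ± 0.19 and the growth factor Egf at 0.052 ± 0.093. Of 19 regulators of the Paneth cell, 15 were measured, 3 higher and 12 lower with a median of -0.057. Xbp1, a transcription factor that Paneth cells need for their secretory apparatus, was at -0.33 ± 0.067 with an unadjusted p of 0.00161, and the autophagy gene Atg7 at 0.50 ± 0.16 with an unadjusted p of 0.0153. Both had an adjusted p of 0.801 in limma. Tcf7l2, a TCF factor of the Wnt pathway, was at -0.15 ± 0.083. In the families of the other members, 17 matrix metalloproteinases and inhibitors had a median of 0.0025 (9 higher, 8 lower) and 9 secreted phospholipases A2 a median of -0.0036 (4 higher, 5 lower), with Pla2g12a at 0.26 ± 0.084 and an unadjusted p of 0.0172 in limma. Among the metalloproteinases, the gelatinase Mmp2 was at -0.15 ± 0.062, Mmp28 at -0.11 ± 0.065 and the membrane-bound Mmp14 at 0.16 ± 0.10. Mmp2 was close to the negative controls, with a mean Cy3 signal of 460 in LOI(+) and 465 in LOI(-) mice. Of the phospholipases, Pla2g2e was at -0.099 ± 0.055 and Pla2g5, above the negative controls on 4 arrays, at -0.080 ± 0.11.

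Markers of other cells were read beside the members. Goblet cell markers, 8 of 10 lower, had a median of -0.077 and summed Cy3 signals of 71115 to 118663 in LOI(+) and 67327 to 145702 in LOI(-) mice, lowest in LOI(+) 1 and LOI(-) 2 like Ang4. Smooth muscle markers (7 of 8 lower, median -0.12) had mean centred ratios of -0.14 to -0.0070 in LOI(+) and 0.015 to 0.20 in LOI(-) mice, which did not overlap, and Lmod1 was below the negative controls on all arrays. Fibroblast markers had a median of -0.12 (8 of 9 lower), endothelium -0.061, myeloid and mast cells -0.072, B and plasma cells -0.077, and T and NK cells -0.016. Crypt stem cell markers had a median of 0.18 (6 of 8 higher), villus enterocytes 0.14 (9 of 12 higher) and enteroendocrine cells 0.034 (8 of 13). Tuft cell markers had a median of 0.074 (5 of 8 higher) and mean centred ratios of 0.035 to 0.11 in LOI(+) mice. In LOI(-) mice these ratios ran from -0.15 to -0.021, without overlap. The largest tuft difference was that of Sh2d7, at 0.77 ± 0.13, while Dclk1, Trpm5 and Ptgs1 were lower in LOI(+). Of all single genes 11.3% had no overlap, and no such share was computed for means of lists. In these lists 0 genes passed over all genes tested. The part of other cells in the members' values was not tested.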

How the data were processed

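Spot intensity in both channels comes from the scanner files the authors deposited, made with Agilent's Feature Extraction program per the submitters' processing notes. The processed-signal intensity, an alternative, is background-subtracted and LOWESS dye-normalized, per the file headers. Another alternative was the authors' deposited log10 table, which followed the log10 difference of Cy3 and Cy5 plus an average of log10 Cy5 (r of 0.998 or more, 41174 features, column medians 2.90). Accessions, symbols or synonyms in RefSeq's table named 15381 of 41006 probes (37.5%), for 12323 symbols.

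Mean signals were corrected by normexp (offset 50) in limma 3.58.1 (R 4.3.3) and loess-normalized within arrays, controls at weight 0 and outlier spots left out. Values are log2 Cy3 over Cy5, and a gene with several probes was read on that of highest mean Cy3. Groups were compared by lmFit and eBayes, adjusted over 37948 genes and unnamed probes; single probes were fitted over all probes. The fit was tested on simulated data with independent noise for each gene, which does not copy the variation that members shared across mice. The number of arrays limits the precision. Members and lists were chosen with earlier results of these data known. Text names every member, 3 genes of smallest p per pathway list, 4 acinar genes and the 5 nearest profiles (repeated without saturated Itln1, chosen after seeing the data), and some list genes chosen after their values were seen. Of 302 list genes 220 were measured. Mice were compared unpaired, and whether replicate numbers pair them is not settled. Correlations of deviations were -0.0885, -0.248 and 0.353 for mice of the same number. For mice of different numbers they ran from -0.393 to 0.453. Alternatives were other background corrections and normalizations, Cy3 alone, filters on dim or saturated probes, other rules for several probes, the replicate block, arrays labelled male, and leaving out each mouse. Per the labels, each array is 1 animal.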

Additional observations from a re-analysis of the deposited data

How the results depend on the processing

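In all 22 alternatives 0 genes and 0 members passed an adjusted p of 0.05 in limma or the unmoderated model, with 1498 (without LOI(+) 2) to 3347 genes at an unadjusted p under 0.05. For the 6 unsaturated members the median of -0.12 lay between -0.41 and -0.012, all below 0. With saturated Itln1 among them it was -0.087. That median was 0.073 on the 4 arrays labelled male, -0.028 with scale normalization, -0.036 with no background correction and -0.26 with the mean of all probes. It was -0.13 with Cy3 alone, and -0.35 with the other probe of Mmp7 and Pnliprp2, a setting chosen after seeing the data. With Itln1 kept, leaving out each mouse in turn gave -0.22 to -0.018. Cy3 alone without saturated probes, also chosen after seeing the data, leaves Itln1 out and gave -0.28 for the 6 unsaturated members. Nupr1 kept its sign in all 22, from -0.70 to -0.30. Its unadjusted p did not stay under 0.05 throughout. It was 0.115 in the unmoderated model. In limma it was 0.129 on the arrays labelled male and 0.0913 with Cy3 alone. It was also above 0.05 in limma without LOI(+) 1, LOI(+) 2, LOI(-) 1 or LOI(-) 3, and under 0.05 without LOI(+) 3 or LOI(-) 2. Other members changed sign. With scale normalization Clps was at 0.14 and Mmp7 at 0.18. On the arrays labelled male Clps was at 0.085, Habp2 at 0.073 and Pnliprp2 at 0.13. Leaving out a mouse ranged Ang4 from -0.69 to 0.010, Clps from -0.26 to 0.027, Habp2 from -0.22 to 0.013, Mmp7 from -0.24 to -0.086 and Pnliprp2 from -0.20 to 0.062. The cause was not tested. The replicate block left the median at -0.087 and gave 2460 genes at an unadjusted p under 0.05, against 2335. No difference is given for Itln1, which is at the scanner's ceiling, and Habp2 is limited by its low signal.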
